A study of Rattus norvegicus with 145 samples.

Results

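A set of genes of hepatic glucose handling was read from the liver of rats given acetamide by gavage. The 9 genes were taken by symbol from the 5 deposited count tables, as 9 of 17337 genes in the files, and all 9 passed the filter on low counts in every table. They cover glucose output (Pck1, G6pc, Fbp1 and the coactivator gene Ppargc1a), glucose use (Pklr and Pfkfb1), glycogen storage (Gys2 and Ppp1r3c) and glucose transport (Slc2a2).

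A fasted liver releases glucose by gluconeogenesis, which PEPCK (Pck1), fructose-bisphosphatase (Fbp1) and glucose-6-phosphatase (G6pc) drive, and which glucagon and glucocorticoids raise through cyclic AMP signalling and coactivators such as PGC-1α (Ppargc1a). A fed liver burns and stores glucose instead, with liver pyruvate kinase (Pklr) induced by glucose and insulin. Glycogen is made by glycogen synthase (Gys2). Ppp1r3c encodes a subunit that targets a protein phosphatase, which activates the synthase, to glycogen. The bifunctional enzyme of Pfkfb1 sets the level of fructose 2,6-bisphosphate, which speeds glycolysis and slows gluconeogenesis, and GLUT2 (Slc2a2) moves glucose across the hepatocyte membrane in both directions.

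Acetamide is a small amide that caused liver tumours in rats in long feeding studies, and here it was given daily in water, with doses in mg per kg body weight per day (mkd). In experiment A, male Hsd:WI rats of 9 to 10 weeks received 0, 30, 100, 300 or 1000 mkd for 7 days and were killed on day 8. In experiment B, male and female Crl:WI rats of 8 to 10 weeks received 0, 300, 500, 750, 1000 or 1500 mkd for 7 or 28 days and were killed on day 8 or day 29. Each of the 29 groups held 5 rats, the control groups received the water vehicle, and all rats were fasted overnight before the left liver lobe was taken, so every value below is one of fasted liver. The labels of the day 29 male controls name experiment 1 in one field, but their strain, title and table place them in experiment B, where they were used. Rats were Wistar, a line that is not inbred, and the tissue was whole liver, in which fewer cells of a type and less RNA per cell cannot be told apart.

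Depth did not limit the members other than Ppargc1a. Between 15449716 and 39986531 reads per rat fell on genes. Ppargc1a had 35 to 522 counts per rat in the control and highest-dose groups, and every other member had at least 195 there. Values are given as CPM, the reads of a gene relative to all reads on genes after TMM scaling, a scale that does not correct for gene length, so levels are compared between rats and not between genes. A gene was called changed where edgeR's quasi-likelihood test gave at least a 1.5-fold difference from the control group and an adjusted p of at most 0.05, with Benjamini-Hochberg adjustment over all genes of the table.

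Among the 45 comparisons of a member at the highest dose of a data set, 5 were called, 4 lower and 1 higher. In experiment A at 1000 mkd, Fbp1, Pklr and Ppp1r3c fell, that is 3 of 9 members, where 7.45% of all tested genes were called lower and 21.4% were called in either direction. At 1500 mkd in day 29 females, Pklr fell and Ppargc1a rose, where 13.1% of all genes were called, 3.54% lower and 9.55% higher. None of the 9 was called in day 8 males, day 29 males or day 8 females at 1500 mkd, where 0.177%, 4.91% and 0.705% of all genes were called. With only the control and highest-dose rats in the fit, 1 member was called in experiment A (Ppp1r3c) and 0 in day 29 females. Below the highest dose, none of 171 comparisons was called by edgeR, 10 had an unadjusted p under 0.05, and the lowest adjusted p was 0.0742, for Pklr in day 29 females at 1000 mkd. Few genes of any kind were called there: 0% at all lower doses of experiment A and of day 8 males and at 300 and 500 mkd in day 29 males and 300 mkd in day 29 females, 0.78% and 2.76% at 750 and 1000 mkd in day 29 males, 0.0087%, 0.0174%, 0.0174% and 1.37% at 300, 500, 750 and 1000 mkd in day 8 females, and 0.0349%, 0.183% and 1.59% at 500, 750 and 1000 mkd in day 29 females.

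The log2 fold change at the highest dose was negative in 37 of 45 comparisons. In experiment A it was negative for all 9 members, where 50% of all genes were negative. It was negative for 7 members in day 8 males (all genes 50.5%), 6 in day 29 males (41.6%), 8 in day 8 females (50.8%) and 7 in day 29 females (50.2%). The median log2 fold change of the 9 was -0.48, -0.20, -0.27, -0.43 and -0.23 in that order of data sets, against 0.00 in experiment A, 0.07 in day 29 males and 0.00 in the other 3 tables for all genes. The median of 10 hepatocyte marker genes, counted further below, was -0.68, -0.10, -0.08, -0.28 and -0.49 in the same order. It lay below that of the members in experiment A and day 29 females and above it in the other data sets. Whether the members differ from hepatocyte genes in general was not tested. The members are few and partly move together, so these counts and medians describe the genes and carry no test.

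**Figure D1:**
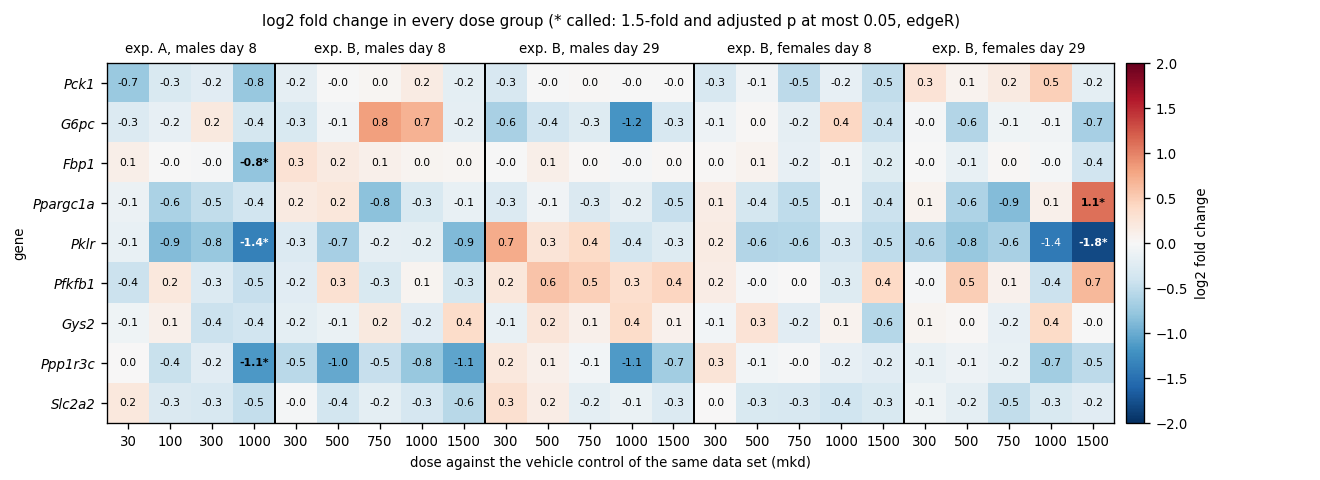
Log2 fold change of each of the 9 genes (rows) in every dose group (columns, mkd) against the vehicle control of the same data set, with colour running from -2 to 2 and an asterisk on each called comparison. All 5 asterisks stand in the highest-dose columns of experiment A and of day 29 females.

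Promoter sequence is shown for the 3 called genes whose 300 bases around the listed start (250 before, 50 after) held one of 6 searched motifs, so that the elements known to answer to glucose or to cyclic AMP can be seen beside the values that follow. Sequences are from RefSeq on build GRCr8, not the rn6 build on which the reads were counted, and 8 members matched by symbol while G6pc matched as a synonym of G6pc1. The capitals mark the motif, positions count from the first transcribed base, 100 bases are printed of each gene, and both strands were searched.

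Pklr, chr2:176841064-176841163, plus strand, from position -200, carbohydrate response element form: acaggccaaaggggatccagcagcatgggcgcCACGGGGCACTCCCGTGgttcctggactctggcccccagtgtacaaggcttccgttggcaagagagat
Ppp1r3c, chr1:243878528-243878627, minus strand, from position -100, E-box: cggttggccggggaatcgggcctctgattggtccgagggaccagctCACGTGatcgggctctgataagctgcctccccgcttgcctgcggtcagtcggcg
Ppargc1a, chr14:63634088-63634187, plus strand, from position -220, cyclic AMP response element: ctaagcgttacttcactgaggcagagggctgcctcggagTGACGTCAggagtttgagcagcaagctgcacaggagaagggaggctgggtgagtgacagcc

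The Pklr match starts at -168 and follows the pattern CACGNGNNNNNCNCGTG, a pair of E-box-like ends 5 bases apart of the kind that ChREBP binds. This pattern was held by 11 of 33469 rat promoters of the same length, or 0.0329%. The E-box CACGTG of Ppp1r3c starts at -54, and 6.42% of promoters held one. The full element TGACGTCA of Ppargc1a starts at -181, and 1.83% held one. Its short form TGACG, which is contained in the full one, was in 21.2% of promoters and among the members in Ppargc1a and Pck1. The forkhead motif TGTTTAC (3.78% of promoters) and the glucocorticoid form GNACANNNTGTNC (0.439%) were not in the window of any member. A match is a description of the letters only. The window of Pklr lies inside the gene's annotated span (chr2:176840779-176849637), as does that of Ppargc1a, since each gene has transcripts that start elsewhere.

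Among the genes of glucose output, Fbp1 had the clearest change in experiment A. Its CPM was 691, 734, 759, 824 and 870 in the 5 controls and 175, 422, 497, 499 and 649 in the 5 rats at 1000 mkd. Every treated rat lay below every control, a separation downwards that 7.22% of all genes showed. The group means were 776 ± 71.7 and 448 ± 173 CPM (SD, n = 5), and the log2 fold change was -0.79 ± 0.20 (SE, adjusted p = 0.0058). The lowest value, 175, belonged to replicate 2, and without that rat the log2 fold change was -0.58 with an adjusted p of 0.0025, just short of the 1.5-fold limit. Below 1000 mkd the level stayed flat, with log2 fold changes between -0.02 and 0.11 at 30, 100 and 300 mkd.

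Fbp1 of day 29 females was lower at 1500 mkd by less than the fold limit. The controls had 942, 952, 1133, 1145 and 1239 CPM and the treated rats 644, 779, 782, 851 and 1115 CPM, so the groups overlapped through 1 treated rat. The log2 fold change was -0.38 ± 0.12 (adjusted p = 0.028), which is 1.30-fold. The difference was -0.25 ± 0.14 in day 8 females, 0.03 ± 0.15 in day 8 males and 0.02 ± 0.16 in day 29 males, none of which passed the test.

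Pck1 and G6pc, the enzymes at the start and end of the pathway, were not called at any dose. Pck1 was 2302, 2723, 3654, 4294 and 5602 CPM in the controls of experiment A and 748, 1780, 2090, 2559 and 3750 CPM at 1000 mkd. The ranges overlapped, and the log2 fold change of -0.77 had a 95% interval from -1.55 to 0.02 (adjusted p = 0.13). Without replicate 1 of the treated group, the highest of the 5, it was -1.05 with an adjusted p of 0.042. In the 4 data sets of experiment B the Pck1 difference at 1500 mkd lay between -0.49 in day 8 females and 0.00 in day 29 males, with intervals of which the lowest bound was -1.35 and the highest 0.69.

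G6pc varied more between rats of one group than between doses. In the day 29 male controls it ran from 359 to 1899 CPM and at 1500 mkd from 154 to 2283 CPM. In the day 29 female controls, 2 rats had 2796 and 2819 CPM and the others 584, 623 and 1077, while the rats at 1500 mkd had 647 to 1261. The log2 fold change was negative in all 5 data sets, between -0.67 (95% interval -1.66 to 0.31, day 29 females) and -0.18 (-1.18 to 0.82, day 8 males), and the adjusted p was at least 0.34. A fall of 2-fold lay inside the 95% interval in all 5 data sets, and a rise of 2-fold inside that of day 29 males.

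Ppargc1a, whose protein coactivates the gluconeogenic genes in fasting, was the only member called higher. The day 29 female controls had 1.59, 2.44, 2.46, 3.96 and 4.32 CPM and the rats at 1500 mkd had 1.95, 2.72, 4.51, 10.3 and 11.9. The rise came from 2 rats, replicates 2 and 3, and the other 3 lay within or next to the control range. The group means were 2.95 ± 1.14 and 6.29 ± 4.56 CPM (log2 fold change 1.10 ± 0.39, adjusted p = 0.047). Without replicate 2 of the treated group it was 0.74 (adjusted p = 0.24), and without replicate 3 it was 0.85 (adjusted p = 0.16). Leaving out control replicate 2, 3, 4 or 5 also ended the call, at log2 fold changes of 0.94 to 1.19 and adjusted p of 0.056 to 0.10, and so did DESeq2 size factors or no filter on low counts. At 750 mkd in the same females Ppargc1a was lower than in the controls by -0.87 ± 0.41 (unadjusted p = 0.042, adjusted p = 0.30). At the highest dose of the other 4 data sets the difference was negative, from -0.45 in day 29 males to -0.14 in day 8 males, and none passed the test. Ppargc1a was the member with the fewest reads.

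**Figure D2:**
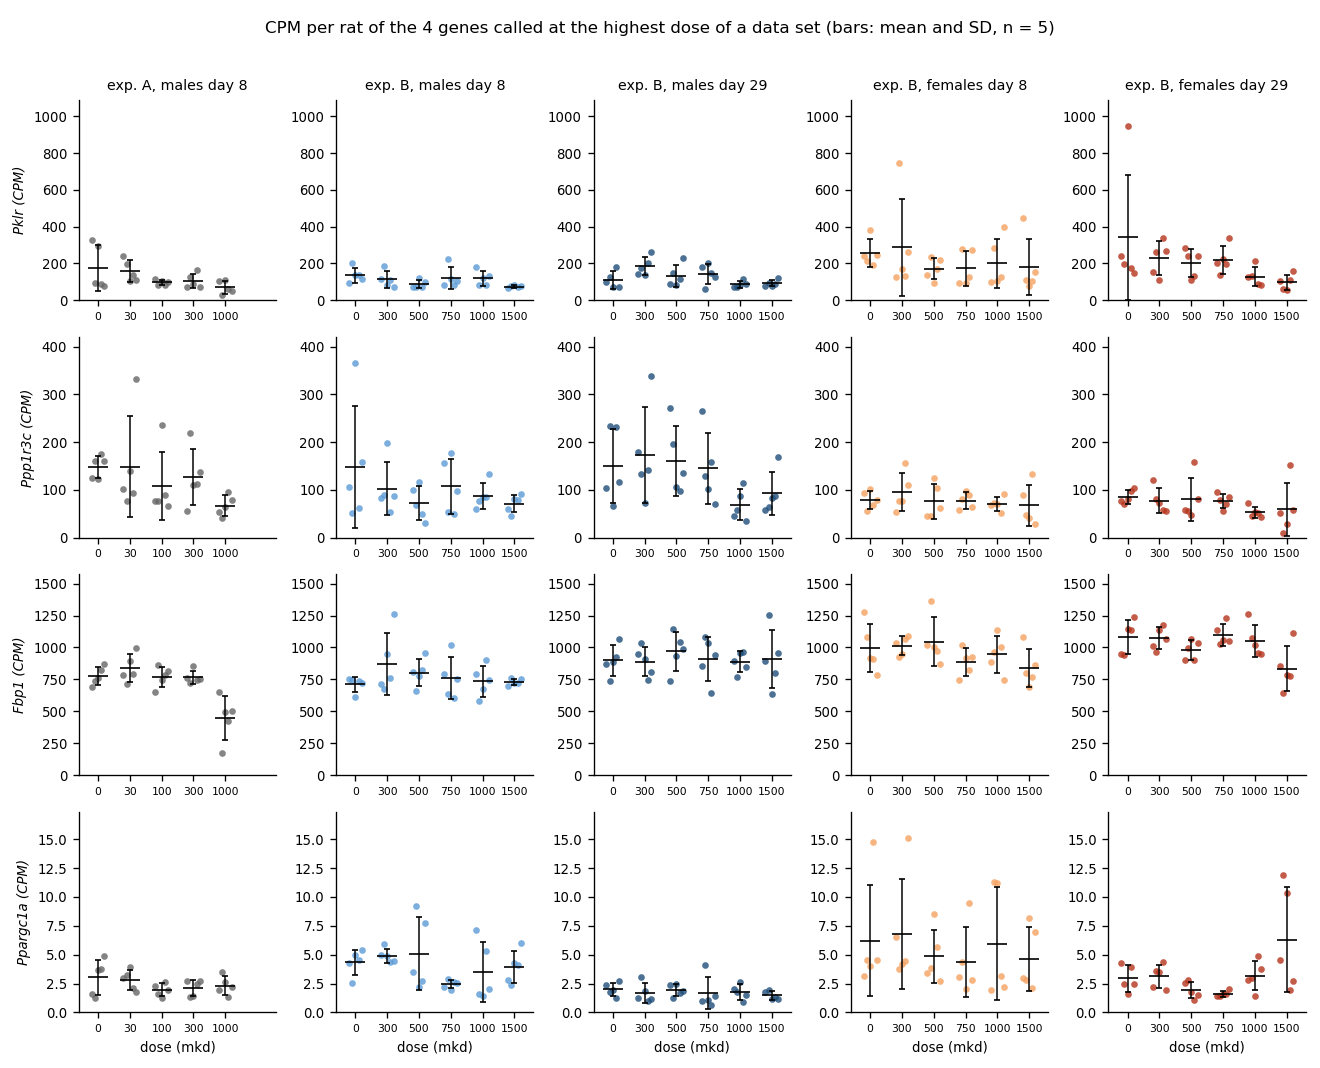
CPM of Pklr, Ppp1r3c, Fbp1 and Ppargc1a (rows, each with its own linear axis from 0) in every rat by dose in mkd, with 1 column per data set, points for rats and bars for mean and SD (n = 5). Pklr of day 29 females falls from the controls, which include 1 rat at 949 CPM, to 56.1 to 158 CPM at 1500 mkd, and Fbp1 of experiment A falls at 1000 mkd only.

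Pklr, the liver isoform gene of pyruvate kinase at the end of glycolysis, fell the most. Controls of the day 29 females had 148, 174, 195, 242 and 949 CPM and the rats at 1500 mkd had 56.1, 60.3, 104, 109 and 158. The groups overlapped only where the highest treated rat passed the lowest control. The group means were 341 ± 341 and 97.5 ± 41.6 CPM (log2 fold change -1.81 ± 0.44, 3.50-fold, adjusted p = 0.0051). Without control replicate 3, the rat at 949 CPM, the log2 fold change was -0.96 (adjusted p = 0.043). Without replicate 3 of all 6 dose groups it was -0.82 (adjusted p = 0.062). At 1000 mkd, the step below the top dose, the log2 fold change was -1.41 ± 0.43 against the same 5 controls, with an adjusted p of 0.074. That comparison was not repeated without the rat at 949 CPM. The median was 195 CPM in the controls and 125 CPM at 1000 mkd.

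In experiment A Pklr was 76.0, 89.8, 92.8, 297 and 326 CPM in the controls and 29.6, 47.4, 58.2, 102 and 108 CPM at 1000 mkd. Both ranges overlapped, and 2 controls stood well above the other 3. The log2 fold change was -1.35 ± 0.40 (adjusted p = 0.014), and without control replicate 1, at 326 CPM, it was -1.01 (adjusted p = 0.056). At 100 mkd the difference was -0.86 ± 0.39 (unadjusted p = 0.039) and did not pass the adjusted test.

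Day 8 males of experiment B showed a separation without a call. Their controls had 95.5, 115, 135, 135 and 203 CPM of Pklr and the rats at 1500 mkd had 65.4, 71.7, 75.3, 76.4 and 83.3, with every treated rat below every control, as in 1.1% of all genes. The log2 fold change was -0.88 ± 0.27 with an unadjusted p of 0.0031 and an adjusted p of 0.14. In day 29 males it was -0.27 ± 0.29, and at 300 mkd 0.75 ± 0.29 (unadjusted p = 0.016, adjusted p = 0.86), the 1 positive difference among the 10 lower-dose values under an unadjusted p of 0.05. In day 8 females it was -0.51 ± 0.50, with 1 treated rat at 447 CPM and 4 at 79.7 to 152 against controls of 193 to 383.

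Pfkfb1 was not called at any dose. At the highest dose its log2 fold change was -0.47 in experiment A and -0.35 in day 8 males, and 0.43, 0.40 and 0.65 in day 29 males, day 8 females and day 29 females. The 95% intervals spanned 0 in all 5, from -1.29 to 0.36 in experiment A and from -0.49 to 1.79 in day 29 females. Of the day 29 females at 1500 mkd, 2 rats had 30.6 and 48.6 CPM and 2 had 5.98 and 6.57, on either side of the controls at 10.3 to 20.6.

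Of the glycogen genes, Ppp1r3c fell in experiment A and Gys2 was not called anywhere. Ppp1r3c was 123, 125, 160, 160 and 175 CPM in the controls of experiment A and 41.2, 54.5, 64.7, 79.1 and 95.8 CPM at 1000 mkd. Every treated rat lay below every control, as for 7.22% of all genes. The group means were 148 ± 23.3 and 67.0 ± 21.2 CPM (log2 fold change -1.15 ± 0.39, 2.21-fold, adjusted p = 0.030). The adjusted p passed 0.05 when control replicate 2 or 4 or treated replicate 1 or 2 was left out, at 0.054 to 0.088, with log2 fold changes of -1.12 to -1.01. At 30, 100 and 300 mkd single rats reached 332, 235 and 218 CPM, above the controls, and no difference passed the test.

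In experiment B the Ppp1r3c difference at 1500 mkd was -1.06 ± 0.45 in day 8 males, -0.70 ± 0.42 in day 29 males, -0.23 ± 0.33 in day 8 females and -0.52 ± 0.42 in day 29 females, and none passed the test. Single rats stood far from their groups in several of these. Day 8 male control replicate 3 had 365 CPM where its group's next value was 157. At 1500 mkd in day 29 females, replicate 4 had 152 CPM and replicate 2 had 8.69, against controls of 70.5 to 104, and without replicate 4 the log2 fold change was -1.24 (adjusted p = 0.019).

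Gys2, the liver glycogen synthase, had log2 fold changes of -0.39, 0.37, 0.08, -0.56 and 0.00 in experiment A, day 8 males, day 29 males, day 8 females and day 29 females. Their 95% intervals all spanned 0, with the narrowest, -0.39 to 0.56, in day 29 males. The largest of them, in day 8 females, had controls of 182, 184, 189, 232 and 360 CPM and treated rats of 61.0, 130, 145.1, 167 and 274, which overlapped through 1 treated rat.

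Slc2a2 showed small differences of the same sign throughout. Its log2 fold change at the highest dose was -0.48 ± 0.21, -0.55 ± 0.20, -0.27 ± 0.19, -0.31 ± 0.17 and -0.23 ± 0.17 in the order just used, all under 1.5-fold and none with an adjusted p below 0.087. In day 8 males the controls had 350, 385, 419, 523 and 541 CPM and the rats at 1500 mkd had 270, 292, 297, 307 and 348. No treated rat reached the lowest control (348 against 350 CPM), a separation downwards that 1.1% of all genes showed. In experiment A the controls split into 3 rats at 389 to 540 and 2 at 263 and 284 CPM, and the treated rats lay at 226 to 359. Leaving out control replicate 5 or treated replicate 1 there gave -0.60 (adjusted p = 0.039) or -0.59 (adjusted p = 0.047).

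**Figure D3:**
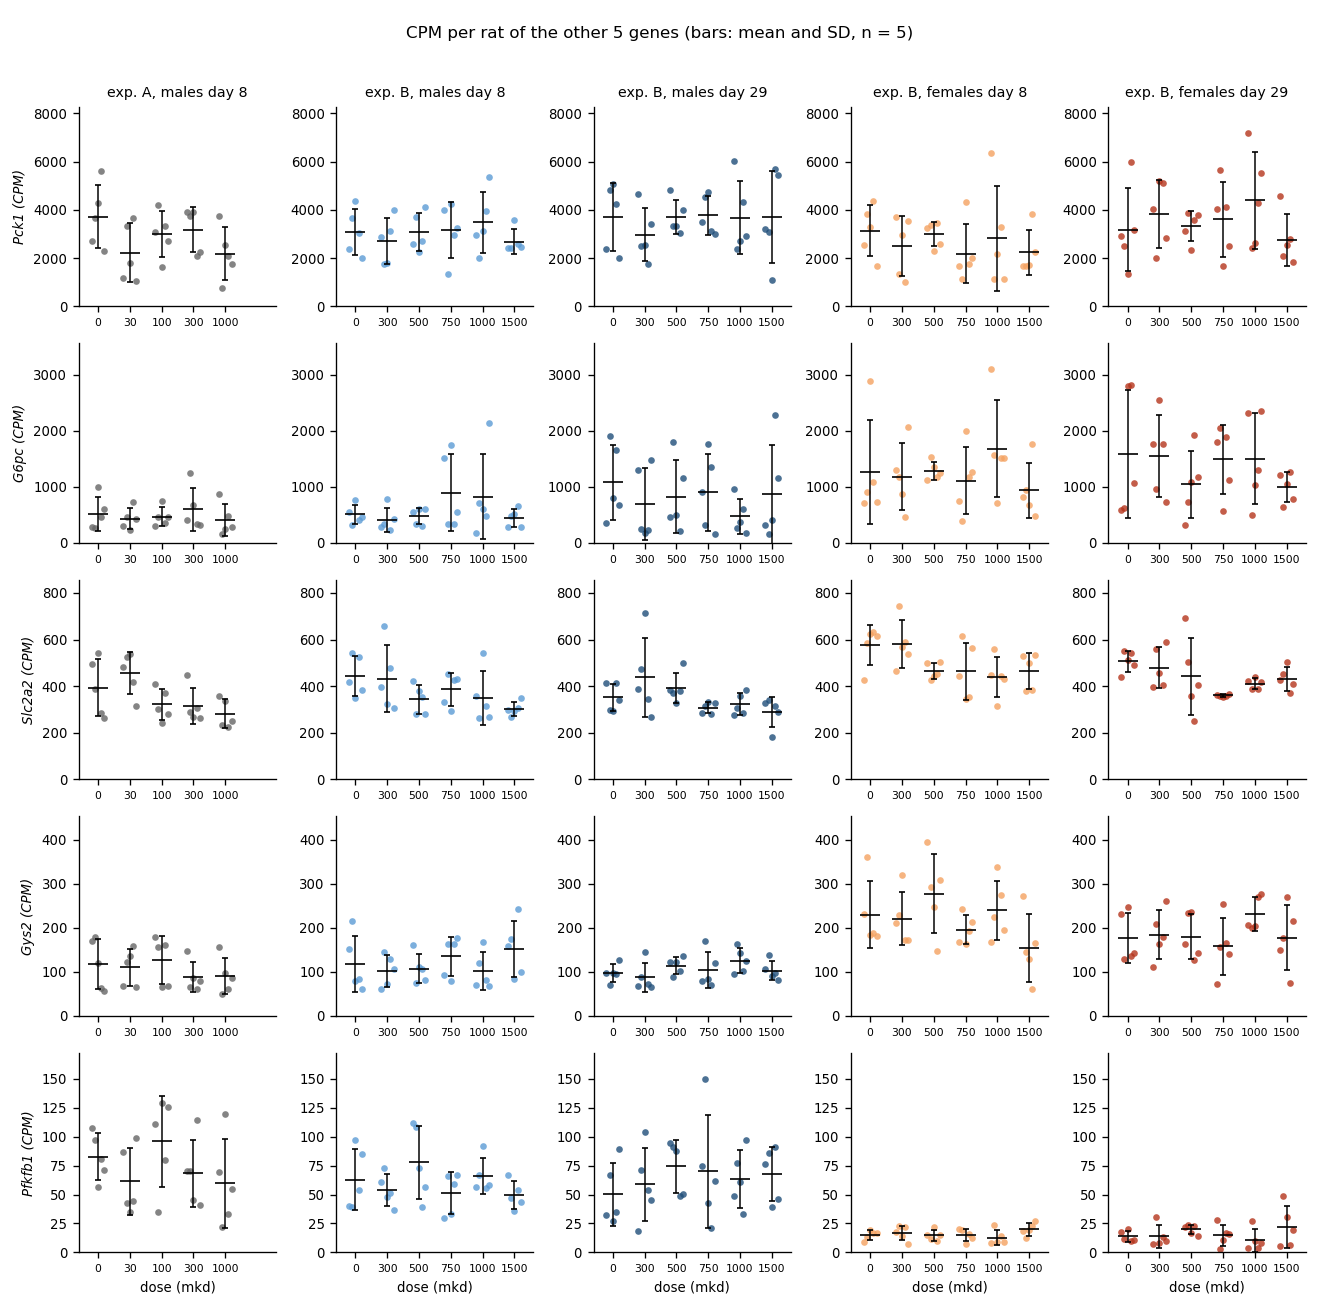
CPM of Pck1, G6pc, Slc2a2, Gys2 and Pfkfb1 (rows, linear axes from 0) in every rat by dose in mkd, 1 column per data set, with bars for mean and SD (n = 5). G6pc spreads from 154 to 2283 CPM within 1 dose group of day 29 males, while Slc2a2 of day 8 males narrows to 270 to 348 CPM at 1500 mkd.

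A trend test that used all doses, with the slope in log2 units per 1000 mkd and a call at an adjusted p of at most 0.05, called 4 members falling in experiment A. These were Fbp1 (-0.86 ± 0.18, adjusted p = 0.00036), Pklr (-1.15 ± 0.35, adjusted p = 0.0093), Ppp1r3c (-1.08 ± 0.34, adjusted p = 0.012) and Slc2a2 (-0.52 ± 0.19, adjusted p = 0.030), where 22.4% of all genes were called falling. Among day 29 females Pklr fell (-1.16 ± 0.25, adjusted p = 0.00091; all genes falling 11.9%) and Ppargc1a rose (0.71 ± 0.25, adjusted p = 0.033; all genes rising 15.4%). In day 29 males Ppp1r3c fell (-0.72 ± 0.27, adjusted p = 0.049; all genes falling 10.6%). No member was called in day 8 males or day 8 females, where 2.52% and 5.44% of all genes had a trend and where Slc2a2 had the lowest adjusted p, 0.090 and 0.13. Without 1000 mkd none of the 4 trends of experiment A was called (adjusted p = 0.999 for each), at slopes over 0 to 300 mkd of -0.19 for Fbp1, -2.35 for Pklr, -1.39 for Slc2a2 and -0.71 for Ppp1r3c, of which only that of Fbp1 was near 0. The Ppp1r3c trend of day 29 males missed the threshold without 1500 mkd (slope -1.01, adjusted p = 0.099), with a replicate block (0.072) and without replicate 1, 2 or 4 (0.080, 0.21 and 0.12). The Ppargc1a trend of day 29 females missed it with DESeq2's Wald test (adjusted p = 0.055), a replicate block (0.063), dose rank (0.079) and without replicate 2, 3 or 5 (0.24, 0.16 and 0.068). Without 1500 mkd the slope of Ppargc1a in day 29 females was -0.19 and that of Pklr -1.18 (adjusted p = 0.052).

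Over the 120 rats of experiment B together, in a fit with the data set as a term that was added after the values by data set had been seen, 4 members fell with dose. Their slopes per 1000 mkd were -0.61 ± 0.12 for Pklr (adjusted p = 2.2e-05), -0.28 ± 0.055 for Slc2a2 (adjusted p = 1.3e-05), -0.49 ± 0.13 for Ppp1r3c (adjusted p = 0.00071) and -0.12 ± 0.042 for Fbp1 (adjusted p = 0.011). Among all genes 23.5% fell in this fit. It was not recomputed with other settings, without a rat or without the highest dose, and its controls include the female at 949 CPM of Pklr. The slopes of Pck1, G6pc, Pfkfb1, Ppargc1a and Gys2 lay between -0.13 and 0.11 with adjusted p of 0.48 or more.

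The response at 1500 mkd was then compared between sexes and between days, by the difference of log2 fold changes over all 120 rats. No member differed in any of the 4 comparisons, in which 0%, 0.466%, 0% and 0.0169% of all genes did. The largest differences between females and males on day 29 were 1.59 for Ppargc1a (95% interval 0.30 to 2.88, adjusted p = 0.19) and -1.50 for Pklr (-2.63 to -0.37, adjusted p = 0.15). Between day 29 and day 8 in females they were 1.54 for Ppargc1a (0.29 to 2.80, adjusted p = 0.60) and -1.29 for Pklr (-2.42 to -0.15, adjusted p = 0.61). Both Pklr differences use the day 29 female controls, with 1 rat at 949 CPM. Over 7 recomputations (DESeq2 size factors, a replicate block or 1 replicate number left out) they ran from -1.98 to -0.44 and from -1.75 to -0.70. The members called in day 29 females were thus not shown to respond differently there.

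Some members differed between the sexes in rats that received vehicle only. Pfkfb1 was higher in males, at 39.5, 39.8, 53.5, 85.1 and 96.8 CPM on day 8 against 9.32, 13.0, 16.6, 17.2 and 19.5 in females. No female reached the lowest male on either day, and the log2 difference of females from males was -2.23 ± 0.45 on day 8 (adjusted p = 0.00010) and -1.93 ± 0.44 on day 29 (adjusted p = 0.00065), where 8% and 12.1% of all genes were called. How many of all genes separated the sexes without overlap was not counted. Pfkfb1 lies on the X chromosome. Pklr was higher in females by 1.51 ± 0.41 on day 29 (adjusted p = 0.0047) and by 0.73 ± 0.40 on day 8 (adjusted p = 0.27), and without replicate 3 of every group the day 29 difference was 0.53 (adjusted p = 0.43). Gys2 was higher in females by 0.79 and 0.76 (adjusted p = 0.082 and 0.068) and the Ppp1r3c difference was -1.07 and -0.93 (adjusted p = 0.096 and 0.12) on day 8 and day 29, without passing the test. Between days no member was called in control rats (all genes 0.0169% in males and 1.25% in females), and the day 29 difference from day 8 was 1.11 ± 0.58 for G6pc in males (adjusted p = 0.49) and, for Ppargc1a, -1.10 ± 0.46 in males (adjusted p = 0.39) and -0.99 ± 0.45 in females (adjusted p = 0.20). Day and data set are the same split, so the exposure time, the age and the handling of the animals cannot be told apart in that comparison.

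**Figure D4:**
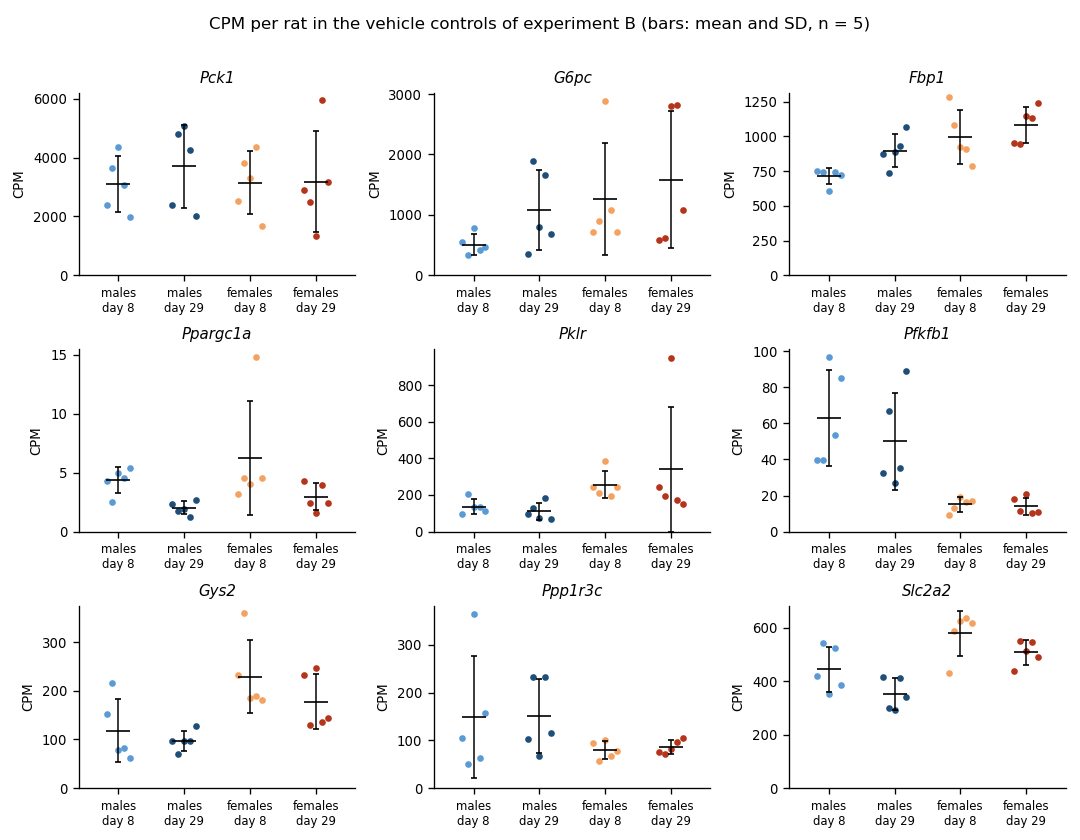
CPM of the 9 genes in each control rat of experiment B (vertical axes linear, from 0), by sex and day, with bars for mean and SD (n = 5). Pfkfb1 of the females lies at 9.32 to 20.6 CPM, below all male values, and 1 day 29 female stands at 949 CPM of Pklr.

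Rats of one group differed from one another at the same dose. Treated rats are included here, so unequal responses to the dose within a group remain in the correlations. After the group mean was taken from the log2 CPM of each rat, Pck1 followed Tat (r = 0.79 over all rats of both experiments), which encodes the fasting-induced enzyme tyrosine aminotransferase, Tob1 (0.76) and Zfp36 (0.75) most closely among 11066 genes. G6pc followed Kctd6 (0.77), Nfil3 (0.67) and Igfbp1 (0.66). Pck1 and G6pc themselves had r = 0.49. These are descriptions across rats that share libraries, depth and group, and they carry no p.

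Gys2 and Slc2a2 tracked output genes of the circadian clock. Gys2 was nearest to Dbp (r = 0.71), Ifrd2 (0.70) and Per3 (0.70), and Slc2a2 to Tef (0.75), Thrsp (0.69) and Per3 (0.69). Both ran against Arntl, the gene of the clock activator BMAL1, with r of -0.77 for Gys2 and -0.68 for Slc2a2. G6pc and Ppp1r3c ran the other way, at 0.54 and 0.46 with Arntl and -0.55 and -0.55 with Per3. Between the members, Gys2 and Slc2a2 had r = 0.50 and Gys2 and Ppp1r3c r = -0.46. None of the 14 clock genes tested was called at the highest dose in any data set, and the kill order of experiment B was described as randomised. The part of kill time in the values of these 4 members was not tested.

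The nearest genes of Pklr were Hcn3 (r = 0.88), Acly (0.79), which encodes ATP citrate lyase, and Tkfc (0.77), which encodes a kinase of fructose breakdown. Hcn3 follows Pklr on chromosome 2 and their RefSeq spans share 3 bases, and the strand setting of the counting is not given in the sources used here, so reads of the pair cannot be fully told apart. Fbp1 was nearest to the metabolic genes Etfb, Pxmp2 and Scp2 (0.67 each), Pfkfb1 to Edem1 (0.73), Fmo2 (0.72) and the glucocorticoid-induced Fkbp5 (0.62), Ppargc1a to Klf9 (0.66), Foxo3 (0.61) and Lpin1 (0.61), and Ppp1r3c to Adck3 (0.59), Dcaf11 (0.58) and Mif4gd (0.58).

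**Figure D5:**
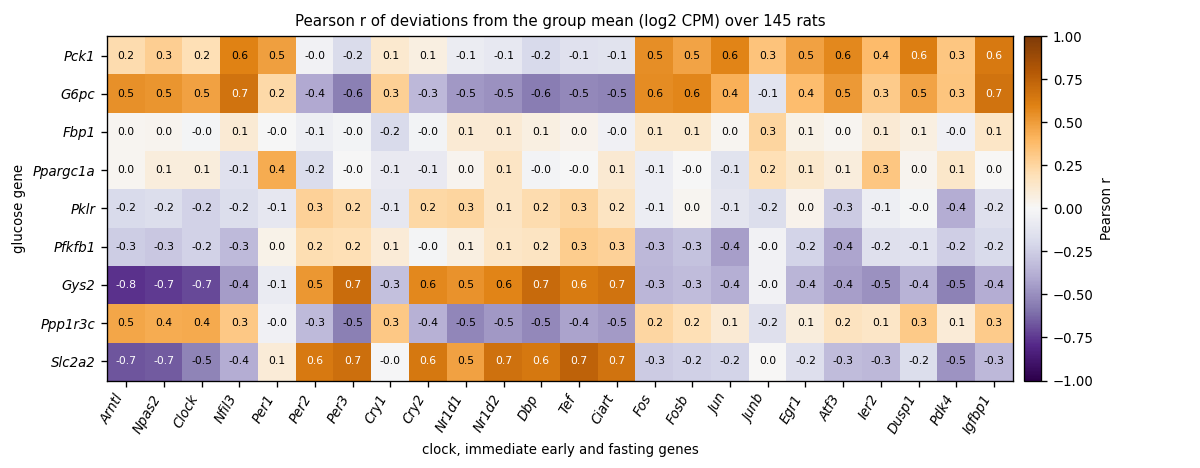
Pearson r between each of the 9 genes (rows) and clock, immediate early and fasting genes (columns) over all rats of both experiments, after subtraction of the group mean of log2 CPM, on a colour scale from -1 to 1. Gys2 and Slc2a2 are negative with Arntl (-0.77 and -0.68) where G6pc and Ppp1r3c are positive (0.54 and 0.46).

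The pathways around the members were counted from lists at the highest dose. There 21.4% of all genes were called in experiment A, 4.91% in day 29 males and 13.1% in day 29 females. The shares were 0.177% in day 8 males and 0.705% in day 8 females. Several counts below lie near these shares, and no list was tested as a set. Of 14 gluconeogenesis genes, 3 fell and 1 rose in experiment A and 1 fell in day 29 females. Slc37a4, the glucose-6-phosphate transporter that feeds G6pc, fell in both, by log2 fold changes of -0.96 (adjusted p = 0.0071) and -0.86 (adjusted p = 0.0060). Pyruvate carboxylase (Pc, -0.85) and the glycerol channel gene Aqp9 (-0.82) fell in experiment A, while G6pc3, the widely expressed phosphatase subunit, rose (0.66). Of 22 glycolysis genes tested, 6 rose and 4 fell in experiment A, 2 rose in day 29 males, and 3 rose and 2 fell in day 29 females.

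Among the glycolytic genes called, Hk3 (2.02 and 1.08), Pfkp (1.66 and 1.08) and Hk2 (1.22 and 0.95) rose in experiment A and day 29 females, and they encode hexokinases and a phosphofructokinase that are found mostly outside hepatocytes. Pfkm (-0.75 and -0.82), another phosphofructokinase gene, fell in the same groups, and the glucokinase regulator Gckr (-1.06) in experiment A. Beside them, the macrophage marker Cd68 rose in the same groups (1.61 and 1.23), as did 6 of 10 macrophage markers in experiment A, with summed CPM of 542 to 1579 in the controls and 1334 to 2308 at 1000 mkd, and 3 of 10 in day 29 females, with 979 to 1234 against 1174 to 2178. The part of other cell types in these differences was not tested.

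The 2 called genes of 7 tested in sugar transport and fructose breakdown, Tkfc (-1.11 and -1.15) and ketohexokinase Khk (-0.87 and -0.91), fell in experiment A and in day 29 females. Among glycogen genes, 2 rose and 2 fell of 22 in experiment A, 1 fell of 22 in day 29 males, and 2 rose and 3 fell of 23 in day 29 females. UDP-glucose pyrophosphorylase Ugp2 (-1.19 and -0.69) and the branching enzyme Gbe1 (-0.78 and -0.82) fell in experiment A and in day 29 females. Ppp1r3b, the gene of another phosphatase subunit that targets glycogen, fell in day 29 females (-1.13). Pygb (0.94 and 0.73), the brain-type phosphorylase, and Pgm2 (1.01 and 0.87) rose in experiment A and in day 29 females.

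Of 13 genes of pyruvate dehydrogenase and its kinases, 5 fell in experiment A, 1 in day 29 males and 3 in day 29 females, where 1 rose. Pdk1 fell in all 3 (-1.23, -0.61 and -1.11), Pdk2 in experiment A and day 29 females (-0.65 and -0.62) and Pdhb, a subunit of the enzyme, in the same pair (-0.60 and -0.61), while Pdk3 rose in day 29 females (0.74). Pdk4, the kinase that fasting raises, was not called, with log2 fold changes from -0.72 to 0.20.

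Among 31 genes of hormone signalling and transcription control, 3 fell and 2 rose in experiment A, 1 fell in day 29 males and 2 fell in day 29 females. The glucagon receptor Gcgr fell in experiment A and day 29 females (-0.73 and -0.63), Srebf1 in day 29 females (-1.09) and the insulin receptor Insr in day 29 males (-0.88). The 2 that rose in experiment A were Nr4a1 (1.48), which encodes an orphan nuclear receptor, and the pseudokinase gene Trib3 (0.81). Among the pentose phosphate genes, H6pd (-0.79) and Pgls (-0.60) fell in experiment A and Taldo1 (0.70) rose in day 29 males. Of 12 genes of the fasting response, Acot1 rose in all 5 data sets by log2 fold changes of 3.29 to 5.10, and Ehhadh, Bdh1 and Cpt1a were among 4 that fell in experiment A. In day 8 males and day 8 females no gene of these lists other than Acot1 was called.

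Cell type markers were counted in the same way. Most of their calls lay in experiment A and day 29 females, where the shares of all genes called were also highest. In day 29 males, where no member was called at 1500 mkd, 1 of 10 hepatocyte markers fell. By the trend test, 5 of 10 macrophage, 4 of 8 stellate cell, 3 of 5 cholangiocyte and 1 of 6 T and NK cell markers rose there. None of these lists had a falling trend. Of the hepatocyte markers 3 of 10 had a falling trend and none a rising one. Over all genes, 2765 of 11279 had a trend in either direction there, and 10.6% had a falling one. In experiment A, 5 of 10 hepatocyte markers fell, and the summed CPM of the list was 270870 to 359290 in the controls and 86572 to 265580 at 1000 mkd, without overlap. For day 29 females 3 fell and 1 rose, with sums of 209670 to 402060 against 102930 to 209610. Markers of T and NK cells rose for 8 of 9 tested genes in experiment A and 2 of 8 in day 29 females, with sums of 24.7 to 30.6 against 42.6 to 78.0 CPM and of 20.0 to 49.4 against 37.5 to 76.9 CPM. Erythroid markers fell for 2 of 5 and 3 of 5 tested genes, and Hba1 of that list had no count in any rat. Pklr is transcribed in red cells as well as in liver, and the erythroid sums were 170 to 258 against 20.0 to 91.4 CPM in experiment A and 68.2 to 215 against 22.8 to 83.5 CPM in day 29 females. In day 8 males, where Pklr separated downwards without a call, the erythroid sums were 28.8 to 124 against 95.2 to 146 CPM. Day 29 males had 85.4 to 127 against 23.6 to 482 CPM. Day 8 females had 31.6 to 91.2 against 47.3 to 72.8 CPM. The part of these lists in the called members was not tested.

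Neutrophil markers rose for 1 and fell for 2 of 4 tested genes in experiment A and rose for 2 of 4 in day 29 females, and endothelial markers rose for 4 of 6 and 2 of 6. Of stellate cell markers 1 of 8 rose in each of these groups, of cholangiocyte markers 1 of 5 rose in each of day 29 males and day 29 females, and of B cell markers none was called. Of 18 cell cycle genes, 17 rose in experiment A, 1 in day 8 males, 13 in day 29 males, 2 in day 8 females and 18 in day 29 females. Of 8 immediate early genes, 2 rose in experiment A and none was called elsewhere. In day 29 males 1 rat at 1500 mkd, replicate 3, stood apart in cell cycle genes, and with or without it no member was called. The summed CPM of the cell cycle genes was 50.9 to 1480.5 in that dose group against 46.2 to 83.1 in its controls. Without that rat 18.5% of the calls over all genes were higher, against 64.3% with it. Whether the 13 cell cycle calls hold without it is not reported here.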

How the data were processed

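RNA of 145 rat livers had been made into stranded mRNA libraries and read as single reads. According to the methods of the study and the labels, the authors trimmed the reads with Trimmomatic, aligned them to the rn6 genome with Bowtie2 and counted them per gene with HTSeq, and deposited raw counts per gene in 5 tables. Versions and the HTSeq strand setting are not given in the sources used here. Summary lines of HTSeq (35.5% to 67.1% of counts in experiment B) were left out. No column was unused (0 left out).

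From the counts, genes were filtered with filterByExpr, scaled by TMM and tested with edgeR 4.0.16 in R 4.3.3 (glmQLFit and glmQLFTest), each data set with all its dose groups in 1 fit. CPM uses the TMM scaling. Comparisons between sexes and days, and of controls, used 1 fit over the 120 rats of experiment B with its group means. Correlations used log2 CPM with a prior count of 2. DESeq2 1.42.0 was an alternative.

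The genes named are the 9 members, up to 3 genes per direction of each list (called in the most data sets, then of largest change), and for each member the 3 genes of highest r; a few genes of the lists are not reported here. Members and lists were chosen with earlier results of these data known. Replicate numbers pair nothing in the labels, and p-values measure the spread between rats. The scripts were tested on simulated data.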

Additional observations from a re-analysis of the deposited data

Results flagged for a closer look

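In 90 groups of 5 rats (each member in the control and highest-dose group of each data set), 11 held 1 rat whose gap to its nearest neighbour took more than 0.71 of the group's range. Chance alone flags about 1 group in 20 where values are normally distributed. The ratio was taken on CPM without logs, so the chance rate here is not known. Females of day 8 held 7 of the 11.

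Among day 8 female controls, replicate 3 had 2892 CPM of G6pc (next 1088) and 383 CPM of Pklr (next 246), replicate 4 had 14.8 CPM of Ppargc1a (next 4.58), replicate 1 had 429 CPM of Slc2a2 (next 585) and replicate 2 had 360 CPM of Gys2 (next 232). At 1500 mkd in the same sex and day, replicate 4 had 3836 CPM of Pck1 (next 2246) and replicate 1 had 447 CPM of Pklr (next 152).

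The day 29 female control replicate 3 had 949 CPM of Pklr (next 242). In males, day 8 replicate 3 at 1500 mkd had 3572 CPM of Pck1 (next 2586), the day 8 control replicate 3 had 610 CPM of Fbp1 (next 722) and day 29 replicate 5 at 1500 mkd had 169 CPM of Ppp1r3c (next 88.2). No member's response differed between sexes or days by the test of the difference.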

How the results depend on the processing

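No member kept its call at the highest dose under every alternative. Of 1944 values of members recomputed, 1878 stayed on their side of the threshold, 48 lost and 17 gained a call, and 1 called value changed sign, the Ppargc1a trend of day 29 females without the highest dose (-0.19). Most of the 1944 belong to results that were not called and had no call to lose. At the highest dose, Ppargc1a of day 29 females lost its call under 14 of 21 alternatives and Pklr under 2. In experiment A, Ppp1r3c lost it under 7 of 21, Fbp1 under 3 and Pklr under 2. Of 6442 values of the other named genes 442 lost and 46 gained a call. With only control and tested dose in the fit, members called at the highest dose were 1 in experiment A and 0 in day 29 females. The day 29 female count was 1 with DESeq2 size factors or no filter. Trends called without the highest dose were 0 in experiment A, day 29 males and day 29 females, though of the called slopes only those of Fbp1 and Ppargc1a came near 0 or turned. The day 29 male trend count was 2 with DESeq2 size factors, no filter or dose rank and 3 with DESeq2's Wald test, and dose rank gave 1 in day 29 females. Leaving out rats gave 1 to 4 members in experiment A, 0 to 3 in day 29 females, trends of 0 to 1 in day 29 males and 1 to 3 in day 29 females, and 1 to 2 for the day 29 sex difference. The cause was not tested.

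The labels tie no replicate number to a shared litter or day, and not every same-numbered pair deviated together: 15 of 25 correlations were over 0.1 (range -0.24 to 0.35). In 13 of 25 the own number was the best match among the 5 rats of the highest-dose group, a hint from the data and not from the design. In experiment A the replicate numbers do not follow the animal numbers of the titles in every group. The replicate block gave 1 member at 1500 mkd and 1 trend in day 29 females, 0 trends in day 29 males, and changed no other member count.

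Counts over all genes moved by more than 1.5 times for day 8 males (20, against 174 with DESeq2's Wald test, 33 with the block, 11 with only 2 groups and 0 to 86 without a rat or replicate number), day 8 females (81, against 341, 3, 11 and 0 to 426), day 29 males (554, against 210 with only 2 groups and 143 to 687) and day 29 females (1498, against 488 and 802 to 1982). Experiment A gave 2424, against 1393 to 2897 without a rat or replicate number, of which 1393 was without replicate 2 of every group. Trend counts were 2769 in place of 5195 with dose rank in experiment A and 515 in place of 285 with DESeq2 in day 8 males, and without the highest dose 1 in both, and 1040 in place of 3127 in day 29 females. Leaving a replicate number out brought them down to 27 in day 8 males, 11 of 626 in day 8 females, 1357 of 2765 in day 29 males and 2047 in day 29 females. The 55 genes with a sex difference in response on day 29 became 0 to 29. The share of calls that were higher in day 29 males was 64.3%, against 53.7% with DESeq2's Wald test, 50.5% with no filter, 52.1% with at least 10 counts in every rat, 20.5% with only 2 groups and 18.5% without replicate 3 at 1500 mkd. In day 8 females it was 74.1%, against 63.6% with that count minimum. No scaling moved the median of all genes by 0.1 log2 units. TMM and DESeq2 size factors both place most genes near 0, so this median cannot show how the results depend on scaling. With 5 rats a group, intervals of G6pc and Ppargc1a reach beyond 2-fold.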
